A study of Mus musculus with 6 samples.

Results

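SLC25 carriers are the largest family of transporters in the mitochondrial inner membrane. The family was taken from the genes of the deposited table whose symbol begins with Slc25a, without the carnitine-acylcarnitine carrier Slc25a20 and without pseudogenes. The members described are 30 of the 11815 genes, and the rule goes by symbol alone. RNA of the gastrocnemius, a calf muscle of mostly fast fibres, had been sequenced from 3 wild-type (WT) libraries (replicates 2, 3 and 4) and 3 knockout (KO) libraries (replicates 1, 2 and 3) of mice lacking the long non-coding RNA lnc-ORA. The KO mice carried a deletion of 5147 bp that takes out the whole lnc-ORA transcript, made on a C57BL/6 background by injecting 2 guide RNAs and Cas9 mRNA into fertilised eggs and crossing founders with wild-type mice. Both groups were untreated as far as the labels say, and the muscle was taken at 15 weeks. The sources used here do not give sex, zygosity, the number of founder lines or the strain of the WT mice. They also do not say that the libraries come from separate animals, so a p-value here reflects variation among libraries, which may be technical.

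Each SLC25 protein is built from repeats of a pair of membrane helices, and most exchange a metabolite of the matrix for another of the cytosol. In muscle the family carries ADP in and ATP out, brings phosphate and iron into the matrix, runs the malate-aspartate shuttle that moves reducing power from glycolysis to the respiratory chain, and supplies cofactors that the mitochondrion does not make. The proteins are made in the cytosol and reach the inner membrane through the TOM complex, small TIM chaperones and the TIM22 complex.

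Values are RPKM, reads scaled by gene length and by the library's total, and the libraries held 54370181 to 69693905 counted reads. A gene was tested when it reached 1 RPKM in at least 3 libraries, which 19 members did. Differences are limma log2 fold changes, KO minus WT, on log2(RPKM + 1), and a gene was called at a Benjamini-Hochberg adjusted p under 0.05 over all 7574 tested genes. The libraries carried the defining RNAs of muscle fibres, such as skeletal actin, Acta1, with 5609 ± 55.1 RPKM for WT and 5823 ± 337 for KO (SD, n = 3 per genotype). Of the 7 tested fibre markers, 2 were called lower. Myh1 and Myh2, the myosins of type IIx and IIa fibres, had log2 fold changes of -1.09 (adjusted p = 0.0225) and -0.90 (adjusted p = 0.0261). Myh1 averaged 2432 RPKM in WT and 1135 in KO, and Myh2 1621 and 896. Myh4, the myosin of the fastest fibres, was at 33937, 35804 and 31050 RPKM in WT and 41918, 40638 and 41478 in KO, without overlap (0.30, adjusted p = 0.0885). In this bulk tissue, fewer cells of a type and less RNA per cell cannot be told apart. Of the markers of other cells, those of Schwann cells differed most between the genotypes. The 5 measured Schwann cell markers summed to 30.8 to 49.0 RPKM in WT libraries and 6.98 to 9.69 in KO libraries, and 4 of 4 tested were called lower. Of 7 tested endothelial markers, 1 was called lower (Cldn5), with sums of 22.6 to 33.8 RPKM in WT and 19.1 to 20.9 in KO. Of 3 tested markers of fibro-adipogenic progenitors, the stromal cells of muscle, 1 was called higher (Col3a1), with sums of 10.3 to 17.9 RPKM in WT and 14.0 to 18.6 in KO. None of 5 smooth muscle, 4 red blood cell and 1 macrophage markers was called, and the adipocyte markers Adipoq, Plin1, Lep, Cfd and Cidec were not among the genes measured. The part of these cells, and of the fibre types, in the results below was not tested.

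Of the 19 tested carriers, 1 was called higher in KO muscle (Slc25a30) and 4 lower (Slc25a34, Slc25a27, Slc25a28 and Slc25a17). Among all tested genes, 3.83% were called higher, 13.5% lower and 17.3% either way. An unadjusted p under 0.05 was reached by 7 of the 19, of which 1 was higher and 6 lower, beside 33.4% of all tested genes (7.59% higher and 25.8% lower). The median log2 fold change of the tested members was -0.11, beside -0.09 for all tested genes, with 9 members above that overall median and 10 below it. Making the library medians equal moved the overall median by 0.10, to 0.01, with 602 genes then called higher (7.95%) and 665 lower (8.78%) in place of 290 and 1021. The members' median was then -0.0089, with 1 called higher and 3 lower. Of the 4 lower, Slc25a34 reached 1 RPKM in WT libraries alone, and without it 3 of 18 tested members were called lower. The call of Slc25a27 was the one that held in each of the 11 alternatives. Without KO replicate 1 or KO replicate 3, 0 members were called higher and 1 lower. Calls among all tested genes also fell, from 1311 to 533 without KO replicate 1 and to 471 without KO replicate 3. Without WT replicate 4, 2 members were called higher and 4 lower, and calls among all tested genes rose to 1637.

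**Figure D1:**
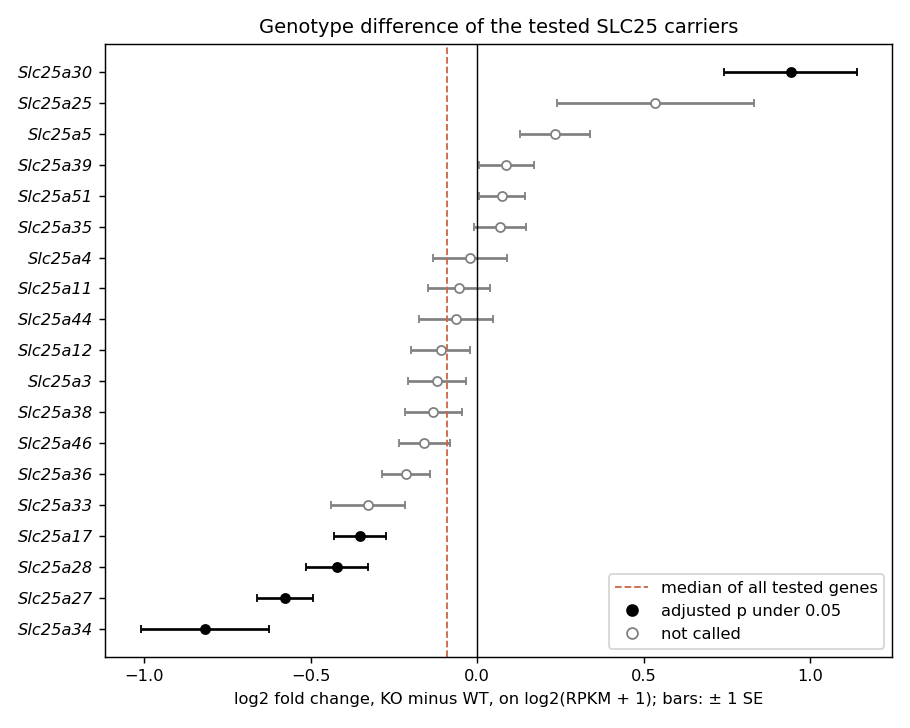
Log2 fold change (KO minus WT, on log2(RPKM + 1)) of the 19 tested carriers, with bars of 1 SE, filled where the adjusted p was under 0.05, and a dashed line at the median of all tested genes (-0.09). The 5 called carriers lie at both ends, from -0.82 for Slc25a34 to 0.94 for Slc25a30, and the abundant carriers lie close to the dashed line.

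The sequences just before the transcription start are shown for the called carriers so that their letters can be set beside the differences. RefSeq promoter sequences (GRCm38.p6) were matched by symbol for 4 of the 5. Each is the 250 bases before the RefSeq start, 5′ to 3′ on the gene's strand, which is the minus strand for all 4. The GENCODE M21 model of Slc25a17 starts at 81360812, inside the printed window, so the end of that window lies within the M21 gene. Capitals mark matches, on either strand, to AAGGTCA (the half-site of nuclear receptors), GGGCGG (the GC box) and CCAAT. The palindromic core of the NRF1 motif was also searched.
Slc25a34 (chr4:141623835-141624084, lower in KO): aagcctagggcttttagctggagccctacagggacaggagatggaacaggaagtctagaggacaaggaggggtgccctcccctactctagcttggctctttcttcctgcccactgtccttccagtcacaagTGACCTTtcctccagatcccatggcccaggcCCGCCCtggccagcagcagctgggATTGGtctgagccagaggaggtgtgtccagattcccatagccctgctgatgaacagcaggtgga
Slc25a28 (chr19:43674882-43675131, lower in KO): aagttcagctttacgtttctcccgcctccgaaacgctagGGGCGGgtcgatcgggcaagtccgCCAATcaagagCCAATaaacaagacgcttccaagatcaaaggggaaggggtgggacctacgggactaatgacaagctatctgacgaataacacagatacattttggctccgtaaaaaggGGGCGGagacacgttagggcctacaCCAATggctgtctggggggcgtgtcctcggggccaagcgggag
Slc25a17 (chr15:81360766-81361015, lower in KO): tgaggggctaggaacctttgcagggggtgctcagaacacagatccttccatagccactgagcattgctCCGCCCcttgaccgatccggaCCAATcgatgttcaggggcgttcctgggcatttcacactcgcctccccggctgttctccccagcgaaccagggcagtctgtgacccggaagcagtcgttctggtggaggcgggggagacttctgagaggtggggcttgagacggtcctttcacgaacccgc
Slc25a30 (chr14:75787038-75787287, higher in KO): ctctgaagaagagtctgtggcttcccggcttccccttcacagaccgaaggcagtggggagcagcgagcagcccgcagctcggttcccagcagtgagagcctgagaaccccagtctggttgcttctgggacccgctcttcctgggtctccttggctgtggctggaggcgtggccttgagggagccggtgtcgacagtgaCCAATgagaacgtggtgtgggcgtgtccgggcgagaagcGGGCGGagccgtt

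All 4 windows held at least 1 GC box and 1 CCAAT, whichever way the gene differed. The nuclear receptor half-site was in the Slc25a34 window alone of these 4, and none held the NRF1 core. Among the 32851 promoter windows of the same length in the RefSeq table, 32.7% held the GC box, 33.8% CCAAT, 4.08% the half-site and 0.782% the NRF1 core. Of the 28 windows listed for 22 members, 23 held the GC box, 16 CCAAT, 1 the half-site and 0 the NRF1 core. In the 4 printed windows, no marked match overlaps another. These matches describe letters in the windows.

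The carriers of adenine nucleotides and phosphate held the most abundant member by far. Slc25a4, the ADP/ATP carrier of muscle and heart, stood at 810, 823 and 1019 RPKM in WT replicates 2, 3 and 4 and at 897, 825 and 876 in KO replicates 1, 2 and 3. The groups overlapped, with a difference on the log2 scale of -0.02 (SE 0.11, adjusted p = 0.913) that turned to 0.08 with equal library medians. Slc25a4 made up 87.6% to 89.6% of the summed RPKM of the 30 members in every library, and the other 29 summed to 105 to 118 RPKM in WT and 103 to 106 in KO. Slc25a3, the carrier that supplies the phosphate used by ATP synthase, stood at 22.3, 19.7 and 23.7 RPKM in WT and 20.01, 20.4 and 19.6 in KO. Its groups overlapped too (log2 fold change -0.12, SE 0.09, adjusted p = 0.366).

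Slc25a5, the ADP/ATP carrier of dividing and non-muscle cells, was at 2.39, 1.81 and 2.48 RPKM in WT and 3.02, 2.47 and 2.87 in KO (log2 fold change 0.23, adjusted p = 0.163). Its level is uncertain, since 46.6% of the 50-base stretches of its longest transcript also occur in transcripts of other genes, among them Gm5560 and Gm5529. Slc25a4 shares 0 of its stretches. Per length, Slc25a4 stood 339, 455 and 410 times above Slc25a5 in WT and 297, 334 and 305 times above it in KO.

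The 3 ATP-Mg/phosphate carriers of the family sense calcium and load the matrix with adenine nucleotides. Slc25a25, the most abundant of the 3 here, varied widely within both groups. It was at 3.71, 2.55 and 6.74 RPKM in WT and 9.29, 5.10 and 5.29 in KO, so WT replicate 4 lay above 2 of the KO libraries. The log2 fold change was 0.54 (SE 0.30, adjusted p = 0.245). It ranged from 0.28 without WT replicate 3 to 0.84 without WT replicate 4, the latter with an adjusted p of 0.0457. The other calcium-sensing forms, Slc25a23 and Slc25a24, were too low for the test and are described with the low members.

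The relatives of the uncoupling proteins, which pass protons or small anions across the inner membrane, moved in opposite directions. Slc25a27, also known as UCP4 and best known from brain, was at 3.66, 3.05 and 3.09 RPKM in WT and 1.79, 1.79 and 1.99 in KO. Every KO library lay below every WT library, and 268 to 686 reads stood behind each value. Mean RPKM was 3.27 ± 0.342 (WT) and 1.86 ± 0.114 (KO; SD, n = 3 per genotype), and limma put the log2 fold change at -0.58 (SE 0.08, adjusted p = 0.00556). Over the 11 alternatives the adjusted p ran from 0.00465 to 0.0268. The gene lies on chromosome 17 (43641891 to 43667214, minus strand, GRCm38).

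Slc25a30, a relative first described in kidney, was at 1.37, 0.410 and 1.23 RPKM in WT and 2.77, 2.22 and 3.35 in KO. All KO libraries lay above all WT libraries, and WT replicate 3, at 38 reads, was the lowest by far. Mean RPKM was 1.005 ± 0.520 (WT) and 2.78 ± 0.561 (KO; SD, n = 3 per genotype), and limma put the log2 fold change at 0.94 (SE 0.20, adjusted p = 0.0177). The call held without WT replicate 3, at 0.71. It ended without KO replicate 1 (0.94, adjusted p = 0.0605) and without KO replicate 3 (0.84, adjusted p = 0.0727). The gene lies on chromosome 14 (75760117 to 75787037, minus strand, GRCm38), with the promoter printed above.

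The ratio of this pair in RPKM differed between the genotypes, which follows from their opposite calls and adds no evidence to them. Slc25a27 stood at 2.67, 7.45 and 2.503 times the RPKM of Slc25a30 in the WT libraries and at 0.647, 0.806 and 0.595 times in the KO libraries. The 7.45 of WT replicate 3 rests on 38 reads of Slc25a30. Gene lengths were inferred from the values for both genes, at 2687 and 1706 bases, beside 3935 and 4571 in GENCODE M21. The order within KO rests on these lengths. In KO replicates 1, 2 and 3, Slc25a27 had 331, 268 and 327 reads and Slc25a30 had 325, 211 and 349. Ucp3, the uncoupling protein of skeletal muscle, which belongs to the same protein family under another symbol, was at 75.1, 51.8 and 83.2 RPKM in WT and 119, 111 and 122 in KO. Its call is part of the list of other inner membrane transporters below.

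**Figure D2:**
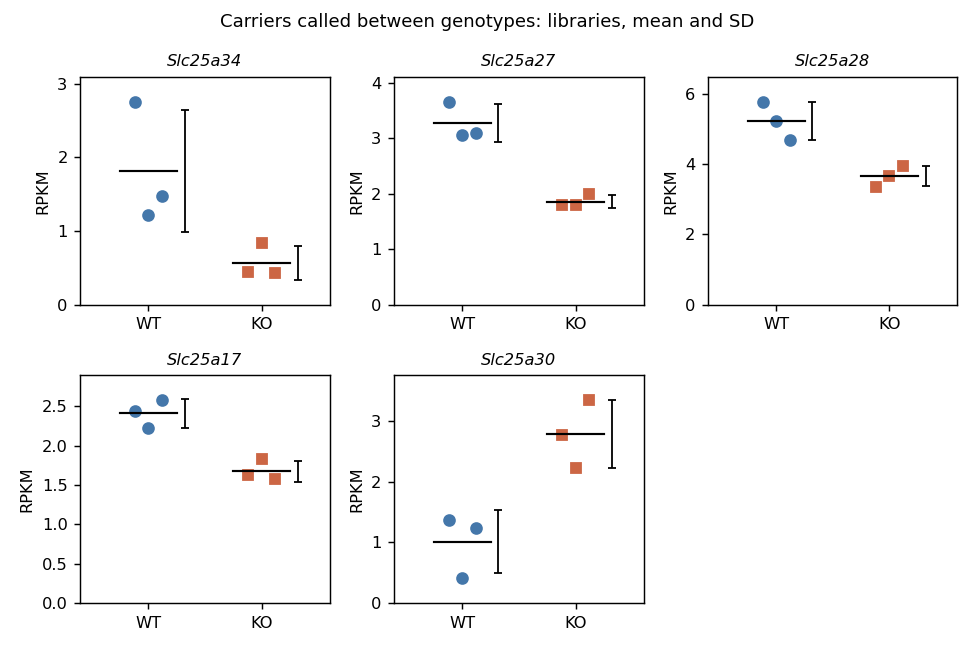
RPKM of the 5 called carriers in each library, WT circles and KO squares, with the group mean as a line and the SD as a bar beside it. In each panel the WT and KO points do not overlap, and the axis starts at 0.

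The carriers of cofactors and nucleotides gave 1 call, lower, among 4 tested. Slc25a17, the family member of the peroxisome, where it carries coenzyme A and related cofactors, was at 2.44, 2.22 and 2.58 RPKM in WT and 1.62, 1.82 and 1.57 in KO. Each KO library was below each WT library, with mean RPKM of 2.41 ± 0.183 (WT) and 1.67 ± 0.133 (KO; SD, n = 3 per genotype). Limma put the log2 fold change at -0.35 (SE 0.08, adjusted p = 0.0203). The call ended with equal library medians (-0.25, adjusted p = 0.0548). It also ended without KO replicate 1 (-0.34, adjusted p = 0.0774) and without KO replicate 3 (-0.32, adjusted p = 0.0948). The gene lies on chromosome 15 (81318911 to 81360812, minus strand, GRCm38).

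The pyrimidine nucleotide carriers Slc25a33 and Slc25a36 did not pass. Slc25a33 was at 4.08, 2.76 and 3.26 RPKM in WT and 2.44, 2.43 and 2.49 in KO, so its groups did not overlap (log2 fold change -0.33, SE 0.11, adjusted p = 0.0808). Without WT replicate 3 it passed (-0.43, adjusted p = 0.0485). In the gene model, 14.9% of its exon bases overlap Gm13068 on the other strand. Slc25a36, of whose 50-base stretches 11.8% also occur in Gm13217, had a log2 fold change of -0.21 (adjusted p = 0.0800), again with no overlap, and the NAD carrier Slc25a51 one of 0.07 (adjusted p = 0.488).

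Of the carriers that serve iron and glutathione, 1 of 2 tested was called. Slc25a28, mitoferrin 2, imports the iron that heme and iron-sulfur clusters need in cells other than red cell precursors. It was at 5.79, 5.25 and 4.71 RPKM in WT and 3.36, 3.67 and 3.95 in KO, with no overlap. Mean RPKM was 5.25 ± 0.542 (WT) and 3.66 ± 0.295 (KO; SD, n = 3 per genotype), and limma put the log2 fold change at -0.42 (SE 0.09, adjusted p = 0.0213). The call ended without WT replicate 3 (adjusted p = 0.0639), KO replicate 1 (0.0841), KO replicate 2 (0.0653) or KO replicate 3 (0.0586). The gene lies on chromosome 19 (43663801 to 43674881, minus strand, GRCm38). Slc25a37, mitoferrin 1 of the red cell lineage, averaged 0.506 ± 0.103 (WT) and 0.485 ± 0.0794 RPKM (KO; SD, n = 3 per genotype), and the groups overlapped. Slc25a39, a glutathione carrier, had a log2 fold change of 0.09 (adjusted p = 0.490).

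Among the amino acid and dicarboxylate carriers, the abundant members of the malate-aspartate shuttle were not called. Slc25a12, the calcium-sensing aspartate/glutamate carrier of muscle and brain, stood at 18.3, 20.6 and 21.9 RPKM in WT and 19.6, 18.4 and 18.0 in KO (log2 fold change -0.11, SE 0.09, adjusted p = 0.421). Slc25a11, its oxoglutarate/malate partner, stood at 24.98, 23.97 and 24.8 RPKM in WT and 21.5, 26.5 and 23.2 in KO (-0.05, SE 0.09, adjusted p = 0.720), and its difference was 0.05 with equal library medians. The groups overlapped for both genes. The branched-chain amino acid carrier Slc25a44 (-0.06, adjusted p = 0.718, and 0.04 with equal library medians) and the glycine carrier Slc25a38 (-0.13, adjusted p = 0.323) were not called either.

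Slc25a46, a family member of the outer membrane tied to mitochondrial shape, was lower in each KO library (4.97, 5.42 and 5.22 RPKM) than in any WT library (5.87, 6.23 and 5.68). The difference on the log2 scale was -0.16 (SE 0.08, adjusted p = 0.192). Of the tested members as a whole, 1 did not overlap with KO higher and 7 with KO lower, beside 9.22% and 30% of all tested genes (39.2% either way).

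The little characterised carriers Slc25a34 and Slc25a35 were the remaining tested members. Slc25a34 was at 2.76, 1.22 and 1.47 RPKM in WT and 0.436, 0.835 and 0.429 in KO, which corresponds to 177 to 513 reads in WT and 70 to 124 in KO. Mean RPKM was 1.81 ± 0.825 (WT) and 0.567 ± 0.233 (KO; SD, n = 3 per genotype), and limma put the log2 fold change at -0.82 (SE 0.19, adjusted p = 0.0253). No KO library reached 1 RPKM, so the gene entered the test through the group where it was high, and its call is given as a description. The call ended without KO replicate 1 (-0.76, adjusted p = 0.0885) and without KO replicate 3 (-0.76, adjusted p = 0.0956). The gene lies on chromosome 4 (141618824 to 141623821, minus strand, GRCm38). Slc25a35 had a log2 fold change of 0.07 (adjusted p = 0.568), and 31.3% of its exon bases overlap Rangrf on the other strand.

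**Figure D3:**
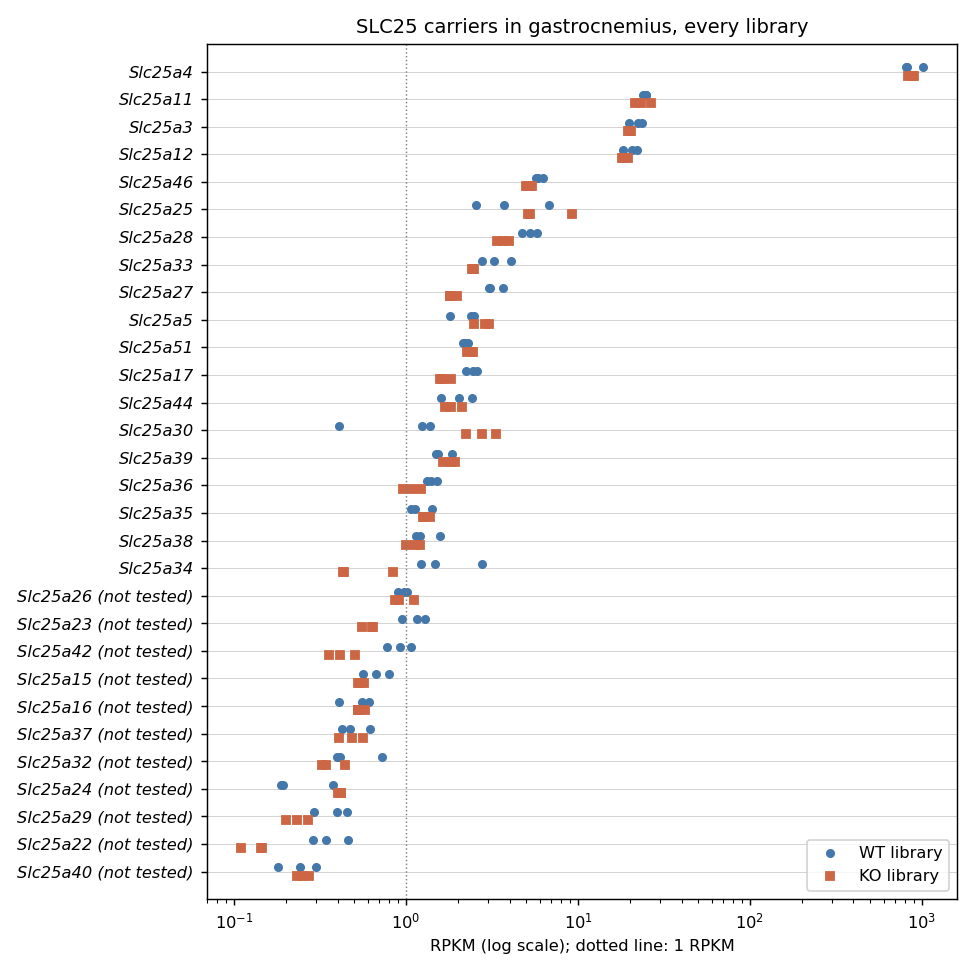
RPKM of the 30 carriers in every library on a log axis, ordered by mean level, WT circles and KO squares, with a dotted line at 1 RPKM. Slc25a4 stands apart at 810 to 1019 RPKM, followed by Slc25a11, Slc25a3 and Slc25a12 near 20, and the 5 called carriers have means between 1.19 and 4.46 RPKM.

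The called carriers were all of low to middle abundance, with means over the 6 libraries of 1.19 to 4.46 RPKM. None of the 4 tested members at or above 10 RPKM was called in limma. Their unadjusted p were 0.849 for Slc25a4, 0.582 for Slc25a11, 0.204 for Slc25a3 and 0.253 for Slc25a12. Among all tested genes, 18.5% of the 1843 at or above 10 RPKM and 16.9% of the 5731 below it were called. The order Slc25a11, Slc25a3 and Slc25a12 rests on means of 24.2, 20.96 and 19.5 RPKM. Slc25a11 lay above Slc25a3 in every library, while Slc25a3 and Slc25a12 changed order between libraries.

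The remaining 11 members averaged 0.245 to 0.960 RPKM and were left out by the filter. They still had 36 to 446 reads in each library, so they were also fitted with no filter on low values and, as an alternative chosen after the data were seen, with limma-voom on the recovered reads. Both fits called 3 of the 11 lower and 0 higher, where 12.4% of all 11815 genes were called lower and 3.2% higher with no filter, and 13.6% and 3.42% in limma-voom. The 3 are named here after their values were seen. Slc25a42, which imports coenzyme A, was at 1.06, 0.770 and 0.924 RPKM in WT and 0.413, 0.504 and 0.357 in KO. The fit with no filter gave -0.43 (adjusted p = 0.00759) and limma-voom, on the log2 scale of the reads, -1.13 (adjusted p = 0.00481).

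Slc25a23, a calcium-sensing ATP-Mg/phosphate carrier, was at 1.16, 0.948 and 1.29 RPKM in WT and 0.640, 0.635 and 0.556 in KO. The fit with no filter gave -0.40 (adjusted p = 0.0103) and limma-voom -0.89 (adjusted p = 0.00655). Slc25a22, a glutamate carrier, was at 0.460, 0.289 and 0.341 RPKM in WT and 0.146, 0.144 and 0.109 in KO, with -0.27 (adjusted p = 0.0110) with no filter and -1.44 (adjusted p = 0.00655) in limma-voom. All KO libraries were below all WT libraries for these 3 genes. Without KO replicate 3, the fit with no filter lost the calls of Slc25a23 (-0.38, adjusted p = 0.0585) and Slc25a22 (-0.25, adjusted p = 0.0576). It kept that of Slc25a42 (-0.39, adjusted p = 0.0442).

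For 2 more low members the groups did not overlap. Slc25a24, another ATP-Mg/phosphate carrier, was higher in KO (0.420, 0.419 and 0.400 RPKM) than in WT (0.376, 0.193 and 0.187), but it was not called with no filter (0.18, adjusted p = 0.0754) and was called without WT replicate 2 (0.25, adjusted p = 0.00648). Slc25a29, a carrier of basic amino acids, was lower in KO (0.201, 0.269 and 0.232 RPKM) than in WT (0.396, 0.452 and 0.293), at -0.16 (adjusted p = 0.0622), and it was called without WT replicate 4 (-0.21, adjusted p = 0.0207). Among the 4241 genes left out by the filter, 6.65% did not overlap with KO higher and 29.7% with KO lower. The other 6 low members overlapped between the groups: Slc25a15 (ornithine), Slc25a16, Slc25a26 (S-adenosylmethionine), Slc25a32 (folate and FAD), Slc25a37 and Slc25a40.

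**Figure D4:**
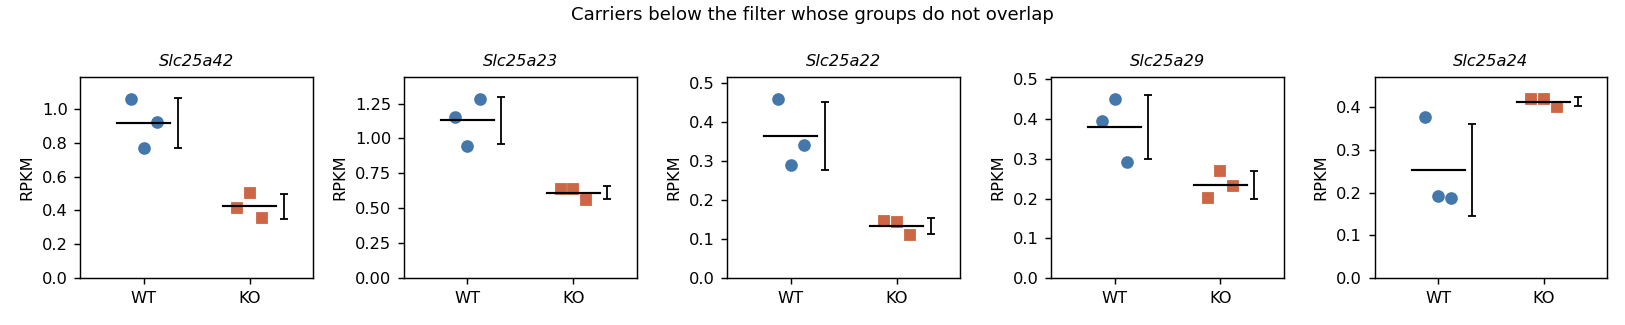
RPKM in each library of the 5 carriers below the filter whose groups do not overlap, WT circles and KO squares, with the group mean as a line and the SD as a bar. Slc25a42, Slc25a23, Slc25a22 and Slc25a29 are lower in all KO libraries and Slc25a24 is higher, at levels of 0.109 to 1.29 RPKM.

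The authors' deposited table, for which no source names the test, lists a false discovery rate (FDR) under 0.05 for 1 of the 30 members, Slc25a23 (log2 fold change -0.65, FDR 0.0383). Of all 11815 genes in the authors' deposited table, 1.62% have an FDR under 0.05, 0.711% higher and 0.906% lower in KO. None of the 5 carriers called in limma has an FDR under 0.05 in the authors' deposited table. Slc25a27 has -0.51 and an FDR of 0.0544 in the authors' deposited table, and Slc25a30 has 0.94 and an FDR of 0.283. For Slc25a34, Slc25a17 and Slc25a28 the authors' deposited table gives FDRs of 0.0812, 0.128 and 0.211. An unadjusted p under 0.05 in the authors' deposited table is held by 10 of the 30 members, 1 higher and 9 lower, beside 22.2% of all genes (9.94% higher and 12.2% lower). The median log2 fold change of all genes in the authors' deposited table is -0.0043, a different centring from that of the RPKM values.

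Genes that work beside the carriers were read from lists, with 17.3% of all tested genes called as the background. Of 14 tested genes of the import path that inserts carriers into the inner membrane, 1 was called, lower. This was Timm10, a small chaperone that guides carriers across the space between the membranes, at 17.6, 13.8 and 15.8 RPKM in WT and 9.86, 10.3 and 10.7 in KO (log2 fold change -0.56, limma adjusted p = 0.00941). Its partner Timm9 was at -0.25 (adjusted p = 0.0769). Of the other tested small TIM chaperones, Timm10b was at -0.16, Timm13 at -0.03 and Timm8b at -0.01, and none was called. Timm22 was at 0.16 (adjusted p = 0.227). Of 11 tested transporters of the inner membrane outside the Slc25a symbols, 1 was called, the uncoupling protein Ucp3, higher (0.77, adjusted p = 0.0184). None of 5 outer membrane channels and carrier homologues was called in limma, and the smallest unadjusted p among them was 0.136, for Mtch2.

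Of 6 tested enzymes of the malate-aspartate and glycerol phosphate shuttles, 1 was called lower, 1 higher and 4 neither way. The cytosolic malate dehydrogenase Mdh1 was lower, at 58.3, 50.7 and 63.3 RPKM in WT and 43.9, 46.5 and 40.0 in KO (-0.39, limma adjusted p = 0.0397). The glycerol phosphate dehydrogenase Gpd1 was higher, at 35.3, 39.8 and 36.8 RPKM in WT and 57.7, 60.4 and 63.3 in KO (0.68, adjusted p = 0.00277). Of the uncalled, the malate-aspartate enzymes Got1, Got2 and Mdh2 were at -0.33, -0.22 and -0.14 (adjusted p = 0.101, 0.116 and 0.235). Gpd2 of the glycerol phosphate shuttle was at 0.01 (adjusted p = 0.940). Among all tested genes, 67.6% had a log2 fold change below 0. Of 5 tested creatine and adenylate kinases, which use the exported ATP, 1 was called lower, 1 higher and 3 neither way. Ckmt2, the creatine kinase of the space between the membranes, fell from 857 ± 108 to 582 ± 35.5 RPKM (-0.55, adjusted p = 0.0163), and the cytosolic adenylate kinase Ak1 rose from 275 ± 16.4 to 358 ± 16.0 (0.38, adjusted p = 0.0227; SD, n = 3 each).

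Genes of branched-chain amino acid breakdown, the pathway that Slc25a44 feeds, had 4 of 15 tested members called lower and none higher. Among the tested genes of the list, the largest log2 fold change was that of Dbt, the core of the branched-chain dehydrogenase. It was at 11.1, 8.78 and 7.08 RPKM in WT and 4.30, 5.33 and 4.74 in KO (-0.77, limma adjusted p = 0.0124). Bckdha, a catalytic subunit of the same complex, was at -0.60 (adjusted p = 0.00602), Mccc2 of leucine breakdown at -0.40 (adjusted p = 0.0103) and the transaminase Bcat2 at -0.34 (adjusted p = 0.0284). Of 12 tested genes of heme synthesis and iron-sulfur assembly, which use the iron that Slc25a28 imports, none was called in limma, and 1 (Urod) had an unadjusted p under 0.05 (0.0435).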

How the data were processed

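Gastrocnemius RNA of 3 WT and 3 KO libraries was fragmented and primed at random for cDNA, per the labels' protocols. GRCm39 is the build in the submitters' processing notes; no source used here names the aligner, counter, annotation or handling of strand. The authors deposited RPKM per gene in each library, a unit recognised from the numbers since the header has none. RPKM times gene length and library size came to whole reads, within 0.02 of a read, for 99.97% of genes and all 30 members, 24 of them at the GENCODE M21 length. Over all genes, 9226 of the 11481 with an M21 length were whole at that length, and nearly all others at lengths inferred from the values. For the other 6 (Slc25a17, Slc25a27, Slc25a28, Slc25a30, Slc25a32 and Slc25a46) the length was inferred, and their levels per length rest on that inference. Per the file headers, the same table has the authors' own comparison as log2 fold change, log2 CPM, F score, p-value and FDR.

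For RPKM, limma-trend (limma 3.58.1, R 4.3.3) was run on log2(RPKM + 1) on genes reaching 1 RPKM in 3 or more libraries. Genotype was the sole term, and calls used Benjamini-Hochberg adjusted p under 0.05. The log2(RPKM + 1) scale understates the change of low genes. Adjusted p come from this limma fit except where another is named. One gene of the family is not reported here. The members are all named; values per library are given for called members, the 6 most abundant, tested members without overlap and with an absolute log2 fold change of at least 0.3, and otherwise the smallest p of a role group; a few further members were chosen after their values were seen. Members, lists and tests were chosen with earlier results of these data known. Alternatives were a pseudocount of 0.1, no filter, equal library medians, leaving out each library, a block on the replicate number and limma-voom on the recovered reads; limma-voom with no filter, and no filter with each library left out, were chosen after seeing the data. Coordinates and overlaps are of GENCODE M21 (GRCm38), not the build of the notes. Sums and figures used Python 3.11.15, pandas 2.3.3, numpy 2.4.6 and matplotlib 3.10.9.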

Additional observations from a re-analysis of the deposited data

How the results depend on the processing

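Of the 11 alternatives to the fit, the count of 1 member called higher and 4 lower was 1 and 4 with a pseudocount of 0.1 and in limma-voom on the recovered reads. With no filter on low values it was 1 and 7, and 7 lower in limma-voom with no filter, which called 2009 of 11812 genes in all, beside 1847 of 11815 in limma-trend with no filter and 1311 of the 7574 tested genes. With equal library medians it was 1 and 3, with a members' median of -0.00892. Leaving out each library in turn gave 0 to 2 members higher, 1 to 4 lower, 471 to 1637 genes in all and a members' median of -0.13 to -0.07. Fewer libraries leave fewer degrees of freedom, and the part of this in the changed counts was not tested.

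The 3 members that changed sign were not called. Slc25a4 was at 0.0792 with equal library medians, 0.0587 with the replicate block and -0.0810 to 0.0846 with libraries left out; Slc25a11 was at 0.0477, 0.0196 and -0.13 to 0.0133. Slc25a44 was at 0.0368 with equal library medians and -0.17 to 0.0281 with libraries left out. The cause was not tested.

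Replicate numbers 2 and 3 occur in both groups, and the labels do not say that they pair animals. Deviations from the group means correlated at 0.48 between the libraries numbered 2 and 0.27 between those numbered 3, and at 0.43 between WT replicate 4 and KO replicate 1, which share no number. With the replicate block, 2 members were called higher and 3 lower, and 1548 genes in all; Slc25a25 was then called (0.60, adjusted p = 0.0257) and Slc25a17 was not (-0.30, adjusted p = 0.0637).

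With 3 libraries a group and 36 to 446 reads for the members under 1 RPKM, small differences in these were not detectable.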
